A study of Mus musculus with 6 samples.

Results

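Replication-dependent histone genes are the clustered genes, named Hist1h, Hist2h, Hist3h and Hist4h in the mouse, that code for the linker histone H1 and the core histones H2A, H2B, H3 and H4. Protein-coding genes with these names were taken from the count tables of 6 total RNA libraries of mouse lens capsules, and genes with under 10 counts over the 6 libraries were dropped. Of 56940 genes listed, 67 carried such a name and 59 were kept, 5 for H1, 14 for H2A, 16 for H2B, 11 for H3 and 13 for H4. The kept genes lie in 4 groups, with 48 Hist1 genes on chromosome 13, 8 Hist2 genes on chromosome 3, 2 Hist3 genes on chromosome 11 and 1 Hist4 gene on chromosome 6.

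The study modelled cataract surgery in wildtype C57BL/6 mice. The lens fiber mass was taken out of one eye, and the capsule with its attached lens epithelial cells stayed in place. After 5 days the other eye was operated on and both capsules were collected, which gave a group at 0 h (the eye operated on last) and a group at 5 days (the eye operated on first). The 0 h capsules therefore also came from animals that had already had surgery on one eye. Each group had 3 libraries, each made from 5 pooled capsules. No source used here says which mice contributed to which pool, and p-values measure the spread between these pools.

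Histones package DNA into nucleosomes, in which DNA wraps around a core of H2A, H2B, H3 and H4, while H1 binds the DNA between cores. Cells make most of these proteins during S phase, when newly copied DNA needs them, and the genes of all classes are then switched on together. Their messenger RNAs typically end in a short stem-loop instead of a poly(A) tail. The stem-loop is bound by the protein Slbp and sets how the messenger is cut, translated and degraded. Some of these genes can also give longer, polyadenylated messengers, which have been described in cells that no longer divide. Because the library kit started from total RNA, messengers without a poly(A) tail were also open to measurement.

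The stem-loop is shown because it is the feature that the members share at the messenger level. A search of the annotated coding transcripts (GENCODE M21, GRCm38, sense strand) found the 16-base histone stem-loop in 42 of the 59 members, 21 to 58 bases after the stop codon. The same pattern, at any place in the transcript, was in 0.148% of all 58797 coding transcripts of that release. That share counts transcripts, not genes, and includes those of the histone genes. It took 8 forms, of which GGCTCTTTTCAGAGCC was in 23 members, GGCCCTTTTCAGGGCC in 7 and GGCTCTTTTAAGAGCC in 5. The lines below give it for the most abundant member of H1, H2A, H3 and H4 and for the Hist3 genes, 5′ to 3′, with the stem-loop in capitals and 5 flanking bases on each side in lower case.
Hist1h1c: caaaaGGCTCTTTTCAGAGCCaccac
Hist2h2ac: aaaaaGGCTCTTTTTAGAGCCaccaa
Hist1h3e: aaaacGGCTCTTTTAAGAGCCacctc
Hist1h4d: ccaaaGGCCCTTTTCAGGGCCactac
Hist3h2a: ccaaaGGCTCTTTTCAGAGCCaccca
Hist3h2ba: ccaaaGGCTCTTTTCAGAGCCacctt

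Hist1h1c, Hist3h2a and Hist3h2ba share the most common form, and Hist1h4d has the form that is second in number. In 21 members a coding transcript ran on for more than 100 bases after the stem-loop, among them Hist1h1c, Hist1h1e, Hist1h3e, Hist1h4d, Hist3h2a and Hist3h2ba. No stem-loop was found in the annotated transcripts of the other 17 members, such as Hist1h2bc and Hist2h3b, which says only that these letters are not in the annotated sequence.

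Promoters of 53 members were found in the RefSeq table (GRCm38.p6, 250 bases before to 50 after the start) and searched on both strands. CCAAT, the box bound by NF-Y, was in 83.0% of the members against 37.4% of all 32851 promoters in the table. TATAAA was in 56.6% against 13.6%. The octamer ATTTGCAT, bound by Pou2f1, was in 20.8% against 1.7%, with 38.5% of H2A and 42.9% of H2B promoters and none of H1, H3 or H4. AAACACA, known from H1 promoters, was in 11.3% of members against 7.2% of all promoters, with 80.0% of the H1 promoters. CCAAT was in all H1, H2A, H2B and H3 promoters found and in 25% of those of H4. The motifs searched do not overlap each other, and the percentages describe letters in a window, not binding. Promoters of 3 genes that fell are shown, for the most abundant H1 and H4 gene and for an H2B gene with the octamer. They are not typical of their class in every motif, since Hist1h4d is among the 3 of 12 H4 promoters with CCAAT, and Hist1h1c is the only one of 5 H1 promoters without TATAAA. Each line gives the 250 bases before the start (RefSeq, GRCm38.p6), 5′ to 3′, with the motifs named above in capitals, read as ATTGG where CCAAT lies on the other strand.
Hist1h1c (chr13:23738557-23738806, + strand): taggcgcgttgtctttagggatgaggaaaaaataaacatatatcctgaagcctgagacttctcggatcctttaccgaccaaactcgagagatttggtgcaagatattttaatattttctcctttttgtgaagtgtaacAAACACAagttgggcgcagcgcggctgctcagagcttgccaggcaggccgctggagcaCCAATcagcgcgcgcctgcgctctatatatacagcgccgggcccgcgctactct
Hist1h2bg (chr13:23571150-23571399, + strand): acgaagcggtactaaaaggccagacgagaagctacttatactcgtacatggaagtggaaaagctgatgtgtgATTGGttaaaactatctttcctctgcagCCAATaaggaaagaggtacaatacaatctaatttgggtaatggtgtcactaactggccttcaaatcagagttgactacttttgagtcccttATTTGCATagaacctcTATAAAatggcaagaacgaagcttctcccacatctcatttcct
Hist1h4d (chr13:23581318-23581567, + strand): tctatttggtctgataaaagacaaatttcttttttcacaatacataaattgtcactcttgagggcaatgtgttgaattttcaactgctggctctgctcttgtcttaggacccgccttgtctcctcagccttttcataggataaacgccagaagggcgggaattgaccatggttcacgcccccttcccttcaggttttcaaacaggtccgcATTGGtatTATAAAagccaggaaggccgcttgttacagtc

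The Hist1h1c promoter holds AAACACA and then CCAAT, the Hist1h2bg promoter holds CCAAT in both orientations, the octamer and a TATA box, and the Hist1h4d promoter holds a reversed CCAAT box close to a TATA box.

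Histone messengers were less abundant 5 days after surgery than at 0 h. The summed level of the 59 members, in normalised counts (CPM, scaled by TMM), was 898.6, 1094 and 750.2 in the 0 h libraries and 436.5, 409.5 and 527.8 in the 5 day libraries. Every 5 day library was below every 0 h library. The mean was 914.2 ± 172.4 at 0 h and 457.9 ± 61.95 at 5 days (SD, n = 3), which is 2.0-fold lower, a log2 ratio of -1.0. Before scaling, histones took 0.0865, 0.102 and 0.0723% of what was counted in genes at 0 h, and 0.0442, 0.0434 and 0.0555% at 5 days. In pooled tissue, fewer cells of a histone-rich kind and less histone RNA per cell cannot be told apart.

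**Figure D1:**
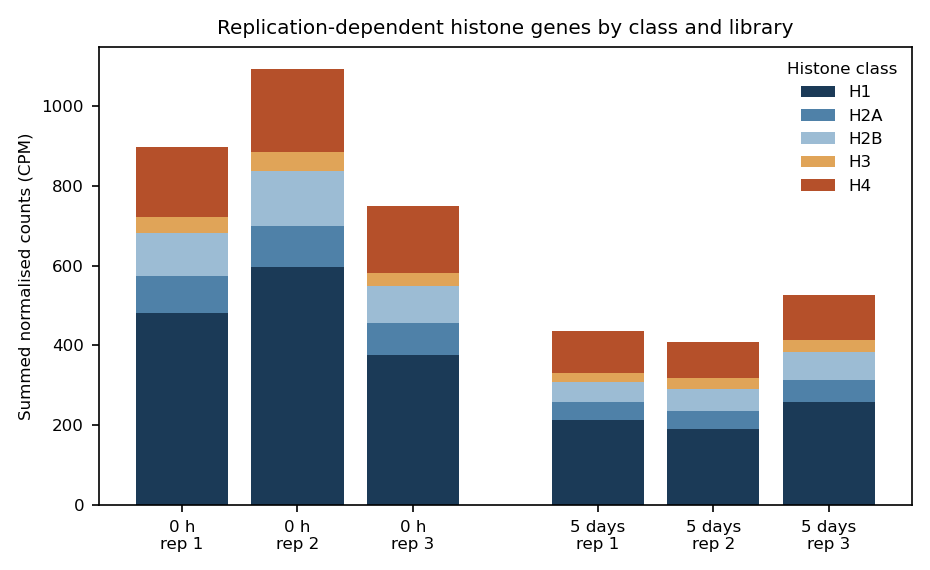
Summed CPM (linear axis from 0) of the 59 histone members in each of the 6 libraries, as bars stacked by the 5 classes. Each 5 day bar (409.5 to 527.8) is shorter than each 0 h bar (750.2 to 1094). H1 is the largest segment in each, in CPM not divided by gene length.

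The sum of each class was lower at 5 days. H1 was at 484.5 ± 109.3 CPM at 0 h and 220.5 ± 35.36 at 5 days (SD, n = 3), a log2 ratio of -1.14. H2A went from 92.45 ± 13.36 to 48.56 ± 5.74 and H2B from 112.4 ± 22.33 to 59.3 ± 8.918 CPM (SD, n = 3), at log2 ratios of -0.93 and -0.92. H4 went from 184.0 ± 21.68 to 103.3 ± 11.61 CPM (log2 ratio -0.83), and H3 from 40.86 ± 7.386 to 26.26 ± 3.543 CPM (log2 ratio -0.64, SD, n = 3). Differences between these ratios were not tested, because the sums are over members chosen with results of these data known.

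Of the 59 members, 47 passed the filter on low counts and were tested gene by gene with edgeR's quasi-likelihood test. At an adjusted p under 0.05, 24 of the 47 fell (51.1%) and none rose, where 22.5% of all 14676 tested genes fell and 25.1% rose. The other 23 did not pass. At an unadjusted p under 0.05 there were 29 lower and 0 higher members, and DESeq2 and limma-voom each called 25 lower and 0 higher. The log2 fold change was negative for 42 of the 47 and positive for 5, with a median of -0.96 against -0.01 over all tested genes and a range of -2.63 to 0.53. For 29 of the 47 tested members, including all 24 that fell, the 5 day libraries lay below the 0 h libraries without overlap, against 28.2% of all tested genes. For 0 of the 47 they lay above, against 29.9%.

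The count of members that fell leaned on replicate 2 at 0 h, which held the highest 0 h value for 34 of the 47 members. Without it, 15 members fell, the median log2 fold change was -0.78, and 0 rose, while 18.2% of all genes then tested fell. The same 15 members fell in all 14 other settings tried: Hist1h1c, Hist1h1e, Hist1h2ac, Hist2h2ac, Hist3h2a, Hist1h2bc, Hist1h2bn, Hist3h2ba, Hist1h3e, Hist2h3b, Hist1h4c, Hist1h4d, Hist1h4k, Hist2h4 and Hist4h4.

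**Figure D2:**
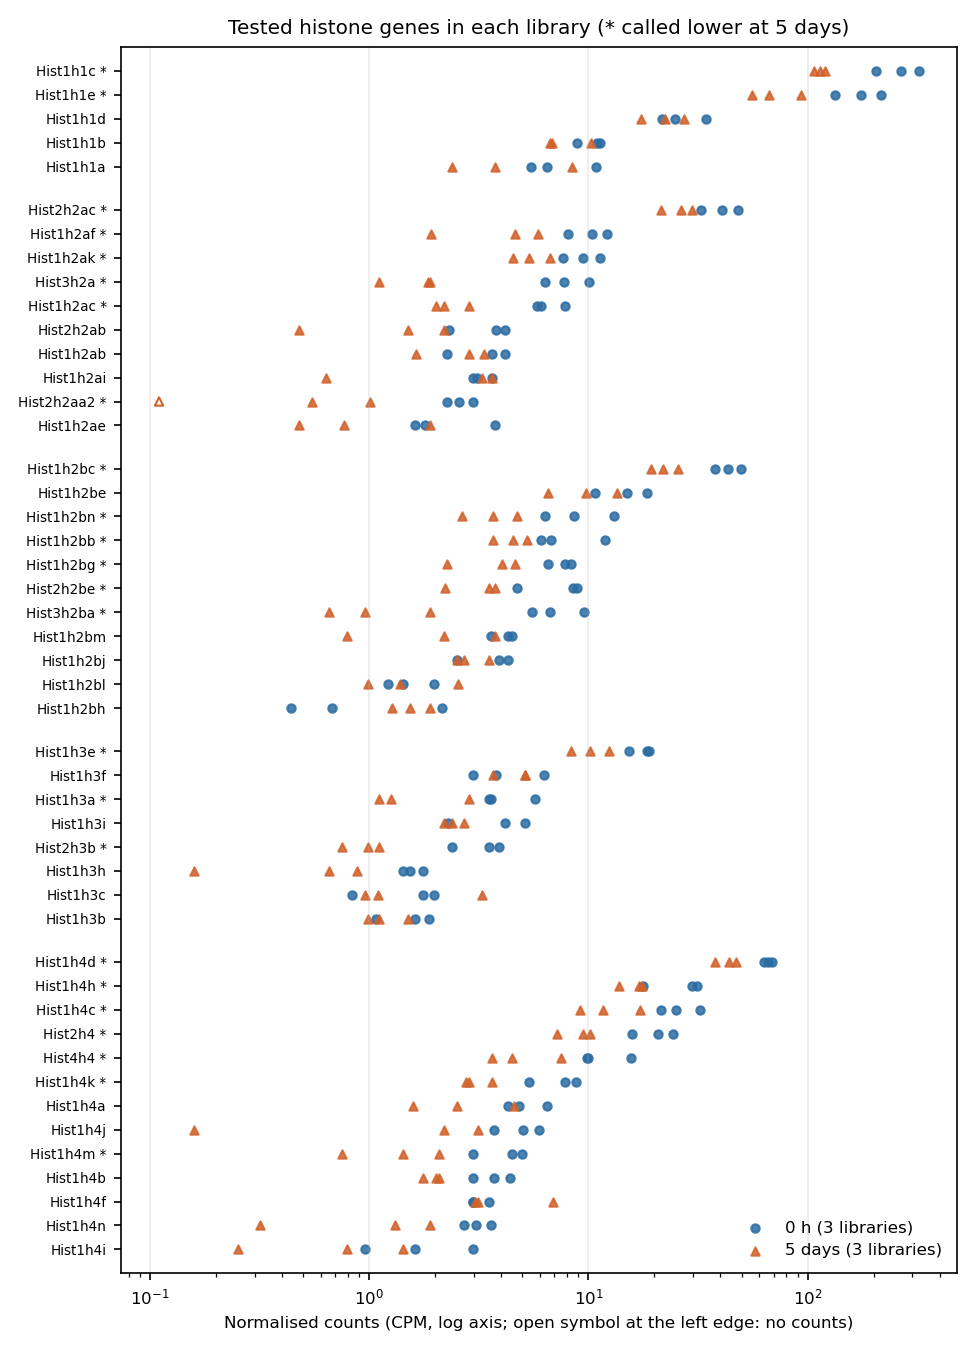
CPM of the tested histone genes in each of the 6 libraries, on a log axis, with genes grouped by class. Circles are the 3 libraries at 0 h, triangles the 3 at 5 days, an open symbol at the left edge is a library with no counts, and a star marks the 24 genes that fell, whose triangles all lie left of the circles.

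The linker histones H1.2 and H1.4, coded by Hist1h1c (ENSMUSG00000036181) and Hist1h1e (ENSMUSG00000051627), had the highest CPM, which is not divided by length. Hist1h1c was at 265.5, 322.1 and 205.2 CPM at 0 h and at 114.3, 106.7 and 120.4 at 5 days. Its 5 day libraries lay close together, well below the lowest 0 h library, and the log2 fold change was -1.22 (SE 0.14, adjusted p = 2.49e-05). Hist1h1e was at 176.0, 216.8 and 132.8 CPM at 0 h and 66.36, 55.51 and 92.85 at 5 days, without overlap. It fell by 1.29 on the log2 scale (SE 0.20, adjusted p = 0.000182). Together these genes made up 49.1, 49.3 and 45.1% of the summed histone CPM at 0 h and 41.4, 39.6 and 40.4% at 5 days. Every 5 day share was below every 0 h share. These shares are of counts, in which longer genes weigh more, and not of numbers of messengers. Leaving both out, the other 57 members summed to 474.7 ± 73.0 CPM at 0 h and 272.5 ± 36.56 at 5 days (SD, n = 3), a log2 ratio of -0.80.

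The other linker histones did not pass. Hist1h1d, which codes for H1.3, was at 21.68, 34.56 and 24.92 CPM at 0 h and 22.44, 17.33 and 27.26 at 5 days. These groups overlapped, and the log2 fold change was -0.28 (SE 0.20, adjusted p = 0.293). Hist1h1b, which codes for H1.5, was at 10.91, 11.3 and 8.823 CPM at 0 h and 6.843, 6.656 and 10.29 at 5 days. Replicate 3 at 5 days lay among the 0 h values, with a log2 fold change of -0.37 (SE 0.25, adjusted p = 0.238). Hist1h1a, which codes for H1.1, was at 6.465, 10.86 and 5.484 CPM at 0 h and 2.387, 3.767 and 8.431 at 5 days. Again only replicate 3 at 5 days reached the 0 h range. The log2 fold change of Hist1h1a was -0.62 (SE 0.43, adjusted p = 0.26), and without that library it was -1.30 and passed (adjusted p = 0.0122).

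Among H2A genes 6 of 10 tested fell, where 22.5% of all tested genes fell. The other 4 also had negative log2 fold changes, and the class median was -1.20. Hist2h2ac, the most abundant H2A gene, was at 40.67, 47.95 and 32.67 CPM at 0 h and 26.42, 21.47 and 29.67 at 5 days. The groups came near each other without overlap, and it fell by 0.64 (log2, SE 0.17, adjusted p = 0.00704). Hist3h2a had the largest fall in the class, from 6.33, 10.09 and 7.75 CPM at 0 h to 1.114, 1.884 and 1.861 at 5 days. Its highest 5 day value was well below its lowest 0 h value, and the log2 fold change was -2.28 (SE 0.35, adjusted p = 0.000182). Hist1h2ac fell from 6.569 ± 1.084 to 2.355 ± 0.4508 CPM (SD, n = 3), by 1.48 on the log2 scale (SE 0.33, adjusted p = 0.00246). Hist1h2ak fell from 9.46 ± 1.842 to 5.523 ± 1.09 CPM (SD, n = 3), with a log2 fold change of -0.78 (SE 0.27) and an adjusted p of 0.0298 that was 0.06 with total library size and 0.0668 to 0.108 without replicate 1 or 2 at 0 h or replicate 2 at 5 days. Hist1h2af (-1.26) and Hist2h2aa2 (-2.22) also fell, and both calls were lost without replicate 2 at 0 h. Values that did not pass were -0.32 for Hist1h2ai, -0.37 for Hist1h2ab, -1.17 for Hist1h2ae and -1.23 for Hist2h2ab.

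H2B genes, whose protein pairs with H2A in the nucleosome, gave a like count, 6 of 11 with a median of -0.88. Of all tested genes 22.5% fell. Hist1h2bc, the most abundant, was at 43.23, 49.59 and 37.79 CPM at 0 h and 21.96, 19.21 and 25.73 at 5 days. The groups were well apart, and it fell by 0.96 (log2, SE 0.15, adjusted p = 0.000209). Hist3h2ba had the largest log2 fold change of all members, at -2.63 (SE 0.43, adjusted p = 0.000318). It was at 5.522, 9.545 and 6.677 CPM at 0 h and 0.9549, 1.884 and 0.657 at 5 days, again without overlap. Hist2h2be fell by 1.20 (SE 0.34, adjusted p = 0.0125), but not without replicate 2 at 0 h (adjusted p = 0.058). Hist1h2bn (-1.34), Hist1h2bg (-1.06) and Hist1h2bb (-0.88) fell as well. The call of Hist1h2bg needed replicate 2 of both times, and Hist1h2bb lost its call in 6 of the 14 other settings. Hist1h2be, second in the class by CPM not divided by length, was at 14.95, 18.54 and 10.73 CPM at 0 h and 6.525, 9.795 and 13.47 at 5 days. Its groups overlapped through replicate 3 at 5 days, and the log2 fold change was -0.55 (SE 0.28, adjusted p = 0.122). Positive values were 0.04 for Hist1h2bl and 0.53 for Hist1h2bh, neither called.

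For H3, the histone whose tail carries many of the marks of active and silent chromatin, 3 of 8 tested genes fell, with a median of -0.73. Over all tested genes 22.5% fell, and the count for these 8 genes was not tested against that share. Hist1h3e, the most abundant, was at 18.86, 18.43 and 15.38 CPM at 0 h and 10.19, 8.288 and 12.37 at 5 days. It fell by 0.77 (log2, SE 0.20, adjusted p = 0.00729), without overlap between the groups. Hist2h3b had the largest fall, from 3.267 ± 0.7894 to 0.951 ± 0.1827 CPM (SD, n = 3), by 1.77 on the log2 scale (SE 0.45, adjusted p = 0.00649). Hist1h3a fell from 4.261 ± 1.251 to 1.739 ± 0.9621 CPM (SD, n = 3), with a log2 fold change of -1.26 (SE 0.45) and an adjusted p of 0.0373, a call lost in 5 of the 14 other settings. Hist1h3f, second in the class by CPM not divided by length, was at 3.771, 6.254 and 2.981 CPM at 0 h and 3.66, 5.149 and 5.146 at 5 days. These values overlapped throughout, with a log2 fold change of 0.10 (SE 0.35, adjusted p = 0.836). Hist1h3c was also positive and not called (0.23), while Hist1h3b, Hist1h3i and Hist1h3h were at -0.34, -0.69 and -1.39 and did not pass.

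All 13 H4 members were tested, and 7 fell, with a median of -1.13, where 22.5% of all tested genes fell. Hist1h4d, the most abundant, was at 65.86, 68.68 and 63.55 CPM at 0 h and 43.61, 37.93 and 47.08 at 5 days. Both groups were tight and did not overlap, and the fall was 0.62 on the log2 scale (SE 0.11, adjusted p = 0.000584). Hist1h4h, second in the class, was at 17.78, 31.38 and 29.69 CPM at 0 h and 17.03, 13.81 and 17.52 at 5 days. Replicate 1 at 0 h lay just above the 5 day values. Hist1h4h fell by 0.71 (SE 0.21, adjusted p = 0.0153), and the call was lost without replicate 2 at 0 h (adjusted p = 0.0822) or replicate 3 at 0 h (adjusted p = 0.0591). Hist1h4m had the largest fall in the class, at -1.52 (SE 0.45, adjusted p = 0.0154), but had no call without replicate 1 or 2 at 0 h or replicate 2 at 5 days (adjusted p 0.0524 to 0.0586).

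Hist4h4, the only member on chromosome 6, was at 9.967, 15.58 and 9.896 CPM at 0 h and 7.48, 3.642 and 4.489 at 5 days. It fell by 1.21 on the log2 scale (SE 0.31, adjusted p = 0.00675), without overlap. Hist1h4c (-1.07), Hist1h4k (-1.24) and Hist2h4 (-1.18) fell too. Hist1h4b (-0.91), Hist1h4n (-1.36) and Hist1h4j (-1.36) did not overlap between groups but missed the threshold, with adjusted p of 0.0648, 0.0503 and 0.0713. Hist1h4f was the H4 gene with a positive value, 0.49 (SE 0.40, adjusted p = 0.339), with replicate 3 at 5 days, at 6.898 CPM, above the other 5 libraries (2.962 to 3.502).

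**Figure D3:**
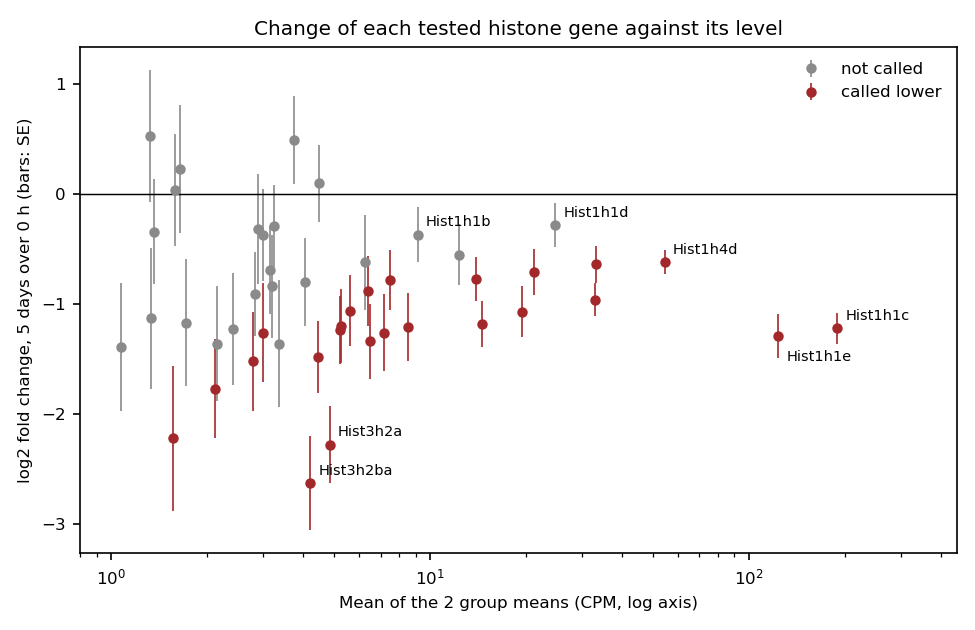
Each point is a tested histone gene, with the mean of the group means in CPM on a log x axis and the log2 fold change of 5 days over 0 h with its SE on the y axis. Red points fell at an adjusted p under 0.05 and grey points did not pass. Hist3h2ba and Hist3h2a lie lowest, and Hist1h1c and Hist1h1e lie farthest right.

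Counts of members that fell are given by chromosome group and by transcript feature. For each of these counts, 22.5% of all tested genes fell. On chromosome 13, 16 of 38 tested Hist1 genes fell (median log2 fold change -0.82). On chromosome 3, 5 of 6 Hist2 genes fell (median -1.22), and both Hist3 genes on chromosome 11 fell (median -2.46). With 2 Hist3 genes and 1 Hist4 gene, no difference between the chromosome groups was tested. Members with a transcript running more than 100 bases past the stem-loop fell in 11 of 19 cases (median -1.13), and the other members in 13 of 28 (median -0.86). These others include Hist2h2be and Hist1h2bc, with annotated transcripts of 2620 and 1156 bases but no stem-loop found. Members with a stem-loop fell in 17 of 33 cases (median -0.91) and those without one in 7 of 14 (median -1.08). Both splits follow the annotated transcripts and do not separate short from long messengers.

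Histone genes are near copies of each other, and reads that match several copies may be lost or split. Reads with no unique alignment made up 4.85 to 6.60% of each library. Among members that share at least 50% of their 50-base windows with another gene, 9 of 19 fell (median -0.91). Among the others 15 of 28 fell (median -1.01), where 22.5% of all tested genes fell. The shared part was 100% for Hist2h3b and Hist2h2aa2, 89.8% for Hist1h4m and 86.4% for Hist1h2bn. Falls of such members may not belong to that copy alone. Of the 13 members whose mean log2 CPM was 3 or more, 10 fell (median -0.77), and of the 34 members below that 14 fell (median -1.10). The share over all tested genes, 22.5%, is not split by level, so these counts do not show a trait of abundant histone genes.

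Levels between genes can be compared only per length. Per kilobase of annotated exon, Hist1h1c led at 0 h with 169.4 CPM per kb, followed by Hist1h1e at 90.78, Hist2h2ac at 77.75, Hist1h4d at 58.02 and Hist1h4h at 55.91. At 5 days Hist1h1c was at 72.95 CPM per kb, Hist2h2ac at 49.71, Hist1h4d at 37.67, Hist1h1e at 37.08 and Hist1h4h at 34.30. Hist1h1c thus remained first, and the next 4 places at 5 days were taken by the same genes in another order, with Hist1h4d and Hist1h1e nearly level. These lengths count the full annotated exons, so a gene that makes mainly its short messenger is undervalued on this scale.

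The 12 members that did not pass the filter had 10 to 71 counts over the 6 libraries. They were 4 H2A, 5 H2B and 3 H3 genes. Without the filter, 10 of the 12 were not called. Hist1h2an had 31 counts at 0 h and 3 at 5 days, and fell by 3.16 on the log2 scale (adjusted p = 0.013). Hist1h3d went the other way, from 6 counts at 0 h to 33 at 5 days, a log2 fold change of 2.42 (adjusted p = 0.0343). It was the only member with a rise in any setting, and also rose without replicate 1 at 0 h or replicate 1 at 5 days.

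The genes that regulate or process histone messengers did not move as the histones did. The test called 3 of 25 higher and 3 lower, where 25.1% of all tested genes rose and 22.5% fell. The median was 0.14 (log2), and 6 were higher when scaled by total library size. Slbp, the stem-loop binding protein, was at 22.76, 22.71 and 22.77 CPM at 0 h and 22.12, 27.0 and 30.33 at 5 days. The groups overlapped, with a log2 fold change of 0.22 (SE 0.15, adjusted p = 0.234). Npat and Casp8ap2, coactivator proteins of the bodies where histone genes are transcribed, were at 0.14 and 0.23 and were not called. Cpsf3, the nuclease that cuts histone and other pre-mRNAs, fell from 76.53 ± 4.259 to 54.28 ± 4.092 CPM (SD, n = 3), by 0.50 on the log2 scale (SE 0.10, adjusted p = 0.00164). Eri1, an exonuclease that trims the histone 3′ end, rose by 0.51 (SE 0.17, adjusted p = 0.0233), a call lost when replicate 1 or 2 at 0 h or the last 5 day replicate was left out. The NF-Y subunits, which bind CCAAT, split: Nfya rose by 0.47, and Nfyb and Nfyc fell by 0.46 and 0.49.

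Replication-independent variants are also made outside S phase. The test called 4 of 11 lower and none higher, where 22.5% of all tested genes fell and 25.1% rose. The median was -0.03, and 2 rose with total library size. By an unadjusted p under 0.05 edgeR also gave 4 lower and 0 higher, and DESeq2 and limma-voom called 4 lower and 0 higher. The linker histone variant H1f0, found in cells that have left the cell cycle, was at 111.3, 129.7 and 114.0 CPM at 0 h and 90.55, 90.17 and 90.99 at 5 days. It fell without overlap, by 0.39 on the log2 scale (SE 0.10, adjusted p = 0.00523). H2afy2, a macroH2A gene, fell by 0.79 (SE 0.17, adjusted p = 0.00225), H1fx by 0.74 and H2afv by 0.51. The H3.3 gene H3f3b and the H2A.Z gene H2afz were at 0.23 (adjusted p = 0.139) and 0.15 (adjusted p = 0.453) and were not called. With total library size, H3f3b passed at 0.36.

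Chaperones carry histones to and from DNA. Among 25 of them, 4 rose and 5 fell, where 25.1% of all tested genes rose and 22.5% fell. The median of the chaperones was 0.14, and 10 rose with total library size. Nap1l1, which carries H2A and H2B, was at 1366, 1790 and 1523 CPM at 0 h and 997.4, 970.9 and 597.8 at 5 days. It fell by 0.87 on the log2 scale (SE 0.18, adjusted p = 0.00201), without overlap. Its relative Nap1l4 fell furthest in this list, from 421.6 ± 55.25 to 140.7 ± 21.02 CPM (SD, n = 3), by 1.58 (SE 0.13, adjusted p = 1.56e-06). Asf1a, Rbbp4 and Anp32e fell by 0.73, 0.47 and 0.51. Mms22l, which acts at replication forks, had the largest rise, 1.28 (SE 0.37, adjusted p = 0.0127), a call that needed both replicate 2 at 0 h and replicate 3 at 5 days. Cabin1, Atrx and Supt16 rose by 0.55, 0.32 and 0.28.

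Genes of DNA replication, whose products work in the same phase as these histones, mostly did not pass. Among 31 of them, 1 rose and 2 fell, where 25.1% of all tested genes rose and 22.5% fell. The median of the 31 genes was -0.08, and 2 rose with total library size. Their summed CPM was 443.9, 487.5 and 449.7 at 0 h and 442.7, 423.8 and 484.0 at 5 days, and the groups overlapped. Pcna, the sliding clamp of the polymerases, was at 18.99, 25.67 and 17.05 CPM at 0 h and 15.12, 16.07 and 22.99 at 5 days. It was not called (-0.18, SE 0.21, adjusted p = 0.506). Tyms, which makes thymidylate, rose by 1.55 (SE 0.24, adjusted p = 0.00022), while the polymerase alpha genes Prim1 and Pola1 fell by 1.56 (SE 0.33, adjusted p = 0.00208) and 0.74 (SE 0.16, adjusted p = 0.00246).

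Of 25 mitosis genes, 0 rose and 0 fell by edgeR's quasi-likelihood test, where 25.1% of all tested genes rose and 22.5% fell. The median of the mitosis genes was -0.05. None passed at an unadjusted p under 0.05 with edgeR or DESeq2, and limma-voom gave 1 higher before adjustment and 0 after. Without replicate 3 at 5 days 3 fell, and without replicate 1 at 5 days 2 rose. Mki67, a marker of cycling cells, was at 72.46, 94.9 and 65.22 CPM at 0 h and 51.09, 67.06 and 71.94 at 5 days. Its groups overlapped, with a log2 fold change of -0.29 (SE 0.16, adjusted p = 0.153), but it passed at -0.40 without replicate 3 at 5 days. Top2a, a topoisomerase of dividing cells, was at -0.20 (SE 0.19, adjusted p = 0.437). The mitosis sum was 259.9, 299.7 and 207.5 CPM at 0 h and 172.2, 255.1 and 295.5 at 5 days, so these groups overlapped where those of the histone sum did not. In both sums replicate 2 was the highest and replicate 3 the lowest of the 0 h libraries, and replicate 3 was the highest at 5 days.

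**Figure D4:**
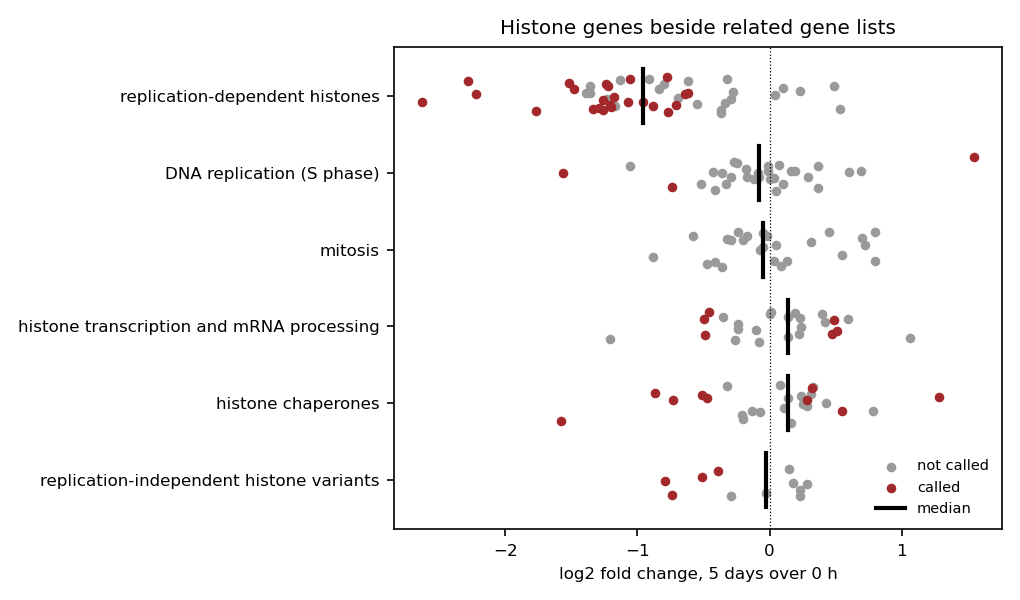
Log2 fold change of 5 days over 0 h (x axis) for each tested gene of the histone set and of the related lists (1 row each), red where called and grey where not, with a black bar at each median. The histone genes centre on -0.96, and the medians of the processing, variant, chaperone, replication and mitosis lists lie between -0.08 and 0.14.

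A list of 8 histone genes named as candidates for polyadenylated messengers overlaps the members. Of the 8, 7 were tested and 7 fell, with a median of -1.21, where 22.5% of all tested genes fell. The 7 were Hist1h1c, Hist1h2bc, Hist2h2be, Hist1h2ac, Hist3h2a, Hist4h4 and Hist1h4h, all described above. The eighth, Hist2h2aa1, had no counts in any library. Its shared part was 100%, so reads from it may be lost or assigned to another copy. The lack of counts therefore does not show that Hist2h2aa1 was silent. Counts per gene do not separate short stem-loop messengers from polyadenylated ones.

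The cells in the capsules differed between the times. For the marker counts below, 22.5% of all tested genes fell and 25.1% rose. Lens epithelium markers were present in all libraries, with sums of 93490 to 110900 CPM at 0 h and 15130 to 29630 at 5 days. Most of each sum was Cryaa, Cryab and Col4a1, so it does not count epithelial cells. Of the 12 markers 8 fell, while Pax6 and Epha2 rose by 0.28 and 0.43 (log2). Six3 and Sox2 were not called (0.01 and -0.15). Lens fiber markers fell in 11 of 11 tested, from 71530 to 81910 CPM at 0 h to 2870 to 13100 at 5 days. Macrophage and monocyte markers rose in 14 of 14, from 21.39 to 45.9 CPM to 632.3 to 886.9, with Ccr2 at 0 counts in all 0 h libraries. Photoreceptor markers fell in 14 of 14, from 625.4 to 949.8 CPM to 45.21 to 128.1. Neutrophil markers were at 0 to 0.3291 CPM at 0 h and 15.32 to 27.21 at 5 days, with 3 of 3 tested higher. Most of the 5 day sum was Csf3r, and of the 8 listed markers Ly6g, Mpo and Elane had no counts in any library. T and B lymphocyte markers were at 0 CPM at 0 h and 0.3183 to 1.256 at 5 days, and none of the 10 was tested. Endothelial markers rose in 3 of 5 tested, from 7.812 to 14.59 CPM to 26.37 to 50.91. Pigment cell markers were at 12.66 to 34.1 CPM and 12.57 to 39.96, with 0 of 4 tested called. Corneal epithelium markers were at 795.2 to 1074 CPM and 412.3 to 638.5, most of it Aldh3a1, which fell. That sum therefore follows Aldh3a1 and does not count corneal cells. The corneal keratin Krt12 was at 0 counts in all 0 h libraries and at 1.751, 0 and 1.095 CPM at 5 days. The keratins Krt5 and Krt14 were at 19.93 and 45.77 CPM in replicate 3 at 5 days and at most 0.3183 in the other 5 libraries. The part of these cell types in the lower histone levels was not tested.

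The libraries held 6207387 to 9774343 gene counts, of which 2743 to 9970 were histone counts. The first principal component of all tested genes held 83.7% of the variance and separated the times. The second held 5.1% and set replicate 3 at 5 days apart, the library with the highest histone sum of its group. Without that library, 28 members fell and 0 rose, while 21.6% of all genes then tested fell.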

How the data were processed

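RNA from 6 pools of lens capsules, 3 at 0 h and 3 at 5 days, was made into libraries with a SMARTer total RNA kit that keeps strand (Pico Input), per the labels' protocols. The deposited values were raw counts per Ensembl gene, which the authors made with HISAT2 and HTSeq on GRCm39, with edgeR also named, per the submitters' processing notes. Their versions and annotation, and how HTSeq treated strand and overlaps, are not given in these sources. Counts of overlapping or antisense genes and near-identical histone copies are therefore uncertain. The HTSeq summary entries (32.26 to 42.55% of reads per library) were left out.

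Symbols (91.23% of identifiers), exon lengths and transcripts came from GENCODE M21 (GRCm38). Genes passing edgeR's default low-count filter (14676) were scaled by TMM. edgeR 4.0.16 (R 4.3.3) gave quasi-likelihood p-values, which were adjusted by Benjamini-Hochberg over the 14676 genes and read at 0.05. All adjusted p-values are from this test unless another tool is named. Positive log2 fold changes mean higher at 5 days. The SE is the size of the log2 fold change divided by the square root of F. The code was tested on simulated data. The common biological coefficient of variation was 0.156.

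The members, gene lists and tests were chosen with earlier results of these data known. Named members were all H1 genes and, in each other class, the 2 with the highest mean CPM and the called member with the largest change each way. From each related list the rule took the called gene of highest mean CPM and the largest called rise and fall, plus all tested candidates for polyadenylated messengers and 9 standard genes. Any other gene named was picked with its values known.

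Other settings were DESeq2 size factors, total library size, TMM computed on genes other than crystallins, mitochondrial genes and rRNA, no filter, at least 2 CPM in 3 libraries, DESeq2 1.42.0, limma-voom (limma 3.58.1), a replicate block, and each library left out in turn. Python 3.11.15, pandas 2.3.3 and matplotlib 3.10.9 drew the figures.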

Additional observations from a re-analysis of the deposited data

How the results depend on the processing

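No gene or summed value changed direction among the called results in any setting. The number of histone genes that fell was 24 in the main test, 24 with DESeq2 size factors or with TMM lacking crystallin, mitochondrial and ribosomal RNA genes, 21 with total library size, 28 of 59 without a filter, 25 of 40 with the stricter filter, and 25 with DESeq2 or limma-voom. It was 15 to 28 when 1 library was left out, lowest without replicate 2 at 0 h, where Hist1h2af, Hist1h2ak, Hist2h2aa2, Hist1h2bb, Hist1h2bg, Hist2h2be, Hist1h3a, Hist1h4h and Hist1h4m lost their calls. Among all tested genes, 22.5% fell in the main test, 12.3% without a filter and 18.2% without replicate 2 at 0 h. The number of histone genes that rose was 0 in the main test, 1 without a filter and 0 to 1 with a library left out. Total library size moved the median log2 fold change of all genes from -0.01 to 0.12 and the upward share of all calls from 52.7 to 62.9%. Under it 6 processing genes, 2 variants, 10 chaperones and 2 replication genes rose, against 3, 0, 4 and 1 in the main test. With a library left out, 2 to 4 chaperones and 1 to 2 replication genes rose, and 0 to 2 mitosis genes rose while 0 to 3 fell. The log2 ratio of the summed histone CPM was -0.86 with total library size and -0.85 to -1.13 with a library left out. With a replicate block by the sample number in the titles, 23 histone genes fell, and Hist1h2bb was lost (adjusted p = 0.0517). The title numbers were not taken as pairs, because no source used here says that they pair pools. Deviations of same-numbered libraries correlated at 0.039, -0.09 and 0.043, which cannot show whether pools share mice. The library names in the labels number the 5 day libraries differently from the titles, and whether pools of the times share mice was not tested. Members with few counts are limited by depth: 12 could not be tested, and the 3 libraries per time limit exact permutation tests of a single value to p = 0.1 or more.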

Other observations

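Some H2A and H2B genes lie head to head, with their starts a short distance apart on opposite strands, and can share the stretch between them. Among the 53 members with a start in the RefSeq table (GRCm38.p6), 6 such pairs were found, with starts 162 to 247 bases apart, and the other 6 members could not be searched. In 3 pairs both genes were tested. Hist1h2ak and Hist1h2bn, 162 bases apart, both fell, by 0.78 and 1.34 on the log2 scale. Hist1h2ae and Hist1h2bg, 178 bases apart, had log2 fold changes of -1.17 (SE 0.58), not called, and -1.06 (SE 0.32), called. Hist1h2bl and Hist1h2ai, 227 bases apart, were at 0.04 (SE 0.51) and -0.32 (SE 0.50), and neither was called.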
